A study of Homo sapiens with 4 samples.

Results

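The genes described here are those that the study's supplementary table of knock-down responses marks as bound by OCT4, NANOG and SOX2 alike. That table lists array probes that differed at least 1.5-fold, at P under 0.01 in each of 2 tests, between cells with 1 factor knocked down and mock-treated cells. It has a column for each factor, marked with a plus sign where the factor was found at the gene. The study took these marks from published binding data of human embryonic stem cells, so they do not describe the cells whose RNA was measured. A probe was taken when all 3 columns held a plus sign. This gave 90 probes, from which 12 were left out by name (the factors and the best known pluripotency and lineage genes), 1 because EBAF is another symbol of a gene named there, and 4 as histone genes. The members are the remaining 73 of the 47293 probes on the array, and they stand for 69 genes. The lists for higher and lower probes after OCT4 knock-down and for higher probes after NANOG knock-down were held whole (3 lists). The list of lower probes after NANOG knock-down was held in part, and the 2 lists for SOX2 knock-down were not held. Members that only the missing lists or rows would add are therefore absent. Of the members, 67 came from the OCT4 lists (31 higher, 36 lower), 17 from the NANOG list of higher probes and 7 from that of lower probes, with 18 on lists of both factors. The members were thus chosen by their differences from mock after OCT4 or NANOG knock-down, which are given below as a description. The difference after SOX2 knock-down uses the same mock arrays and is treated in the same way.

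OCT4 (gene symbol POU5F1), a POU domain protein, and SOX2, an HMG box protein, bind neighbouring DNA sites together in pluripotent cells, and the homeodomain protein NANOG is found at many of the same genes. The targets that all of these factors occupy fall into active genes of the undifferentiated state and genes of development that are silent or low until cells differentiate. Binding near a gene does not by itself say whether the gene's RNA will go up or down when a factor is lost.

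The cells were NCCIT, an established human embryonal carcinoma line, which is a tumour-derived model of pluripotent cells and a single line. Each knock-down group received esiRNA (a pool of short interfering RNAs made by enzyme digestion) against OCT4, NANOG or SOX2 message, complexed with Hyperfect transfection reagent, whereas the mock group received the reagent without esiRNA. All 4 groups grew in high-glucose DMEM with 10% FCS and were harvested at day 2.5, and 300 ng of total RNA was amplified for each Illumina BeadChip. Each group has 3 arrays, called biological replicates by the labels, so 12 arrays were analysed. Between 11196 and 12858 probes were detected on an array (detection score of at least 0.99). A probe was tested when it was detected on all 3 arrays of at least 1 group, which 12374 probes were. All 73 members passed, and 63 were detected on all 3 mock arrays, 70 on all 3 after OCT4 knock-down, and 65 after NANOG and after SOX2 knock-down. Values are background-corrected, quantile-normalised log2 intensities, errors of a difference are standard errors from limma with 3 arrays a group, and a probe is "called" at an adjusted p under 0.05 and at least 1.5-fold. The number of arrays limits the precision.

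The knock-downs were checked on the factors themselves. The POU5F1 probe read 9.36, 9.09 and 9.23 on the mock arrays, 5.31, 5.10 and 4.73 after OCT4 knock-down, 8.77, 8.75 and 8.90 after NANOG knock-down, and 5.001, 4.81 and 4.96 after SOX2 knock-down. It lies near background on the OCT4 and SOX2 knock-down arrays and well above it on the other 6. The NANOG probe read 8.39, 8.47 and 8.29 on the mock arrays, 4.82, 4.85 and 4.99 after OCT4 knock-down, 6.62, 6.46 and 6.54 after NANOG knock-down, and 4.98, 4.84 and 4.57 after SOX2 knock-down. Every knock-down array is below every mock array for it, and it was detected on no OCT4 or SOX2 knock-down array. It was at least 9.18-fold and 9.45-fold below mock there, and lower by -1.85 ± 0.10 (log2) after its own knock-down, where all 3 arrays detected it. No probe could be named as SOX2, so that knock-down was not checked here. The study states that its arrays did not detect SOX2, which it followed by real-time PCR and by Western blot of the protein.

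Markers of cell state moved with the groups. Of 9 genes of undifferentiated embryonal carcinoma, 8 could be named (9 probes). All 9 probes were detected on the mock arrays, and 9 were lower after OCT4, 6 after NANOG and 8 after SOX2 knock-down, their mean going from 10.60 in mock to 7.54, 9.74 and 7.35. Of 6 mesoderm genes, 5 could be named (ACTA2, ACTC, BMP4, MSX1 and RUNX1), and all 5 were higher after OCT4 and after SOX2 knock-down and 0 after NANOG knock-down, with a mean of 5.08 in mock and 7.89, 5.21 and 7.80 in the knock-downs. ACTC, MSX1 and RUNX1 were not detected on any mock array. Of 7 trophoblast genes 2 could be named, HAND1 and GATA3. HAND1 was higher in all 3 knock-downs (3.21, 1.88 and 2.97 on the log2 scale). GATA3 was higher after OCT4 knock-down (0.63), lower after NANOG knock-down (-0.64) and not called after SOX2 knock-down (0.47). The study counts HAND1 among its mesoderm markers, so the mesoderm count of 0 after NANOG knock-down holds only without HAND1. None of the 5 endoderm and 4 neural genes could be named, since names come only from probes on the lists held. The study reports no significant array signal for AFP, GATA4, HNF4A, PAX6, SOX1, NEUROD1, CDX2 or KRT7 in mock or any knock-down. Named markers come from the study's own lists, so their direction is not independent evidence. In bulk RNA, fewer cells of a type and less RNA per cell cannot be told apart, and the part of differentiation in the members' values was not tested.

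Against mock, the members went in both directions, and after NANOG knock-down fewer of them passed the call. After OCT4 knock-down 61 of the 73 were called, 28 higher and 33 lower, where 24.6% of all tested probes were called (13.8% higher, 10.7% lower). After NANOG knock-down 33 were called, 20 higher and 13 lower, beside 9.41% of all probes (5.12% higher, 4.29% lower). After SOX2 knock-down 63 were called, 28 higher and 35 lower, beside 23.9% of all probes (13.5% higher, 10.4% lower). Without background correction the members called were 39, 19 and 40, and 69 of 204 named calls fell under the threshold, so these counts depend on that step. Since the rule used these contrasts, or their mock arrays, nothing is read from the size of these counts. The median absolute log2 difference of the members was 1.04 after OCT4, 0.47 after NANOG and 1.02 after SOX2 knock-down. The typical spread among the 3 arrays of a group was 0.10 for the members and 0.11 over all tested probes (median SD, log2).

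Side by side, the calls in the 3 knock-downs sort the members into a few patterns. Each is given with the share of all tested probes that show it, and since these contrasts chose the members, a larger share among them is built in. The largest holds 20 probes that were lower after OCT4 and SOX2 knock-down and not called after NANOG knock-down (6.38% of all probes). Another 14 were higher after OCT4 and SOX2 knock-down and not called after NANOG knock-down (9.34% of all). Higher in all 3 (2.48% of all) were 10 probes (ATBF1, CCL2, CD99L2, CTGF, DLX5, NS3TP2, SESN3, SFRP1, TLE3 and ZFHX1B), of which CCL2, DLX5 and NS3TP2 were detected on no mock array and have least folds under 1.5 in at least 2 of the knock-downs. Lower in all 3 (2.25% of all) were 9 (CDC14B, DUSP6, EPHA1, NFE2L3, both PTPN2 probes, SFRP2, THBS2 and USP44). Directions were opposite between OCT4 and NANOG knock-down for 7 probes of 5 genes, ADD3, FEZ1, FLI1, NAALAD2 and TNC (0.582% of all). Set directly against each other, OCT4 and NANOG knock-down differed in 50 members (22 higher and 28 lower after OCT4 knock-down), beside 21.3% of all probes (12% higher, 9.37% lower), again on arrays that chose them. Called after NANOG knock-down alone were CEI, DHRS3, IRX2 and PPAP2A (higher) and DTNA (lower). A further PPAP2A probe, not a member, was instead called lower after OCT4 and SOX2 knock-down and not called after NANOG knock-down. The calls of PPAP2A and DTNA were lost when single arrays were left out, and DTNA lay just under the threshold after OCT4 knock-down. The contrasts share the mock arrays, so likeness between them is partly built in.

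**Figure D1:**
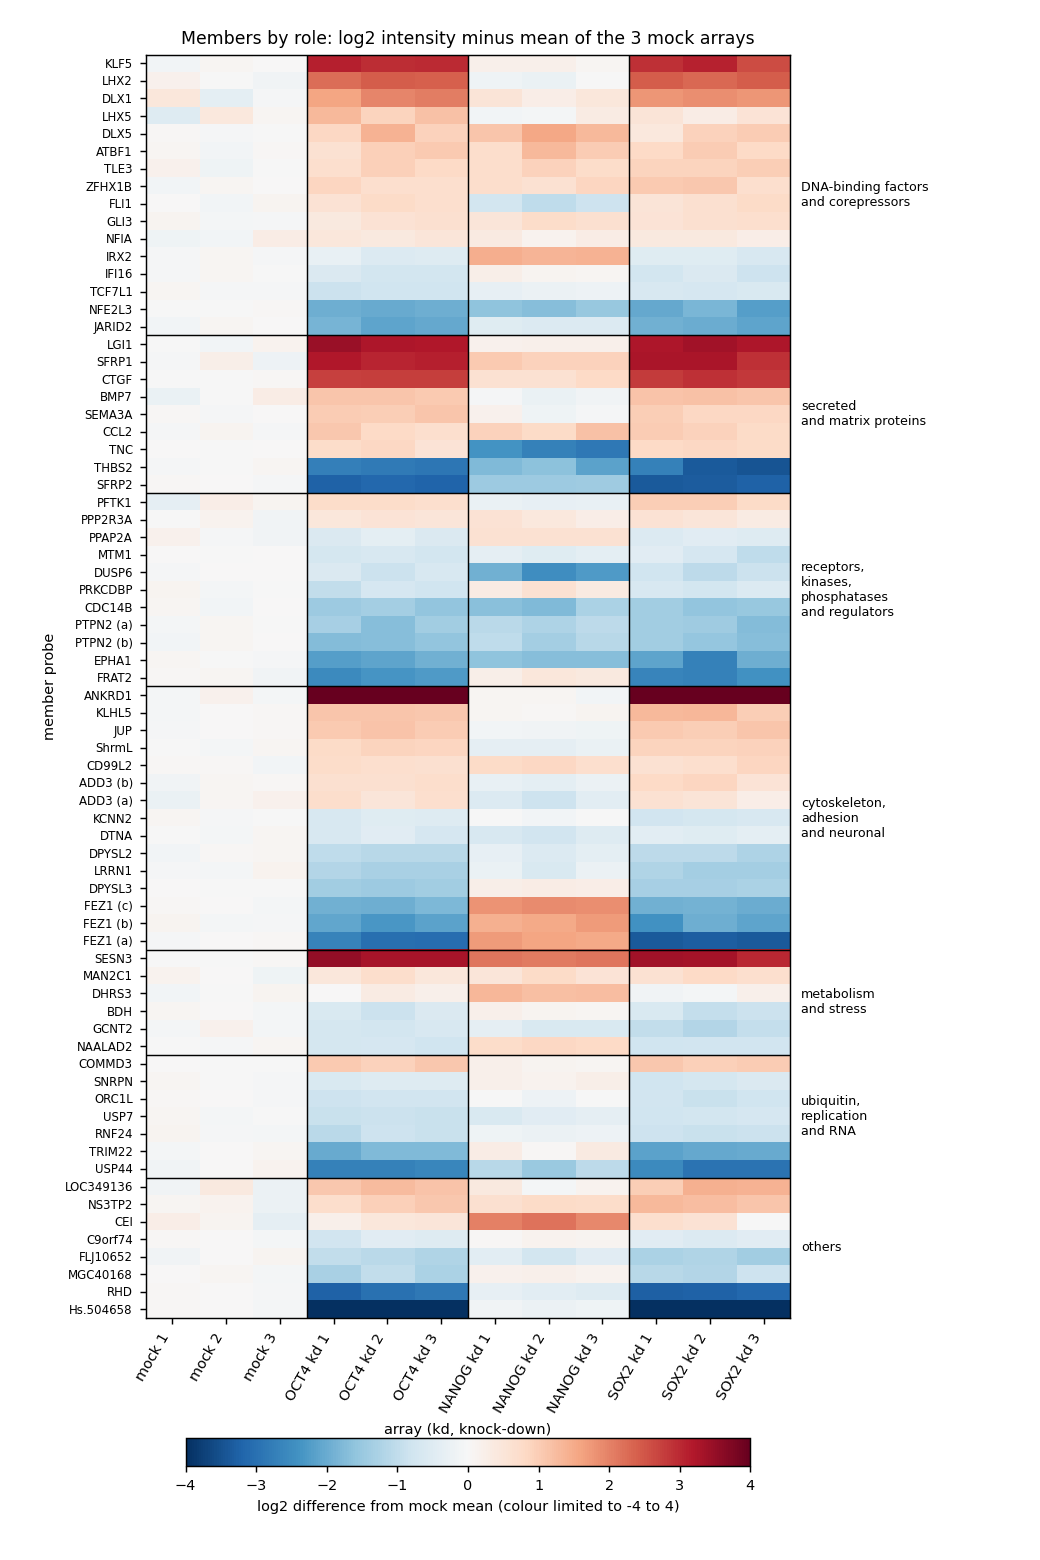
Log2 intensity of the member probes, all but 1 of the 73 (vertical, by role), on the 12 arrays (horizontal), each minus the mean of the 3 mock arrays, with colour limited to the range of -4 to 4. Columns of the OCT4 and SOX2 knock-downs look alike for most probes, and those of the NANOG knock-down are paler, with FEZ1 and TNC going the other way; ANKRD1 (6.30 after OCT4 knock-down) and the cluster with no gene name at the bottom (-5.98) pass the colour limit.

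The comparison of SOX2 with NANOG knock-down takes its differences from 6 arrays, none of them mock or OCT4 knock-down, although those arrays enter through the joint normalisation and the estimate of spread. For the 67 members from the OCT4 lists it asks, on arrays that did not put them on these lists, whether they part in the listed direction between these knock-downs. POU5F1 and NANOG were themselves at least 12.3-fold and 2.63-fold lower after SOX2 than after NANOG knock-down. The comparison therefore does not set loss of SOX2 alone against loss of NANOG. Of these 67, 47 were called (21 higher, 26 lower), where 21.3% of all tested probes were (11.7% higher, 9.61% lower). In 46 of the 47 the direction was that of the OCT4 list: 20 of the 31 listed as higher (64.5%) and 26 of the 36 listed as lower (72.2%). The other one is DUSP6, listed as lower and higher by 1.32 ± 0.13 after SOX2 than after NANOG knock-down. A fit of the 6 arrays compared, after the same normalisation, also called 47. Other settings moved this count: 37 were called without background correction and 56 with no fold minimum. With only probes detected on all 12 arrays, where fewer were tested, it was 34. The median log2 difference was 1.11 for members listed as higher and -0.90 for those listed as lower, beside -0.05 over all tested probes. The 20 members not called lay between -0.58 and 0.50. For 9 of these the adjusted p was under 0.05 at less than 1.5-fold, and for 11 it was not (ATBF1, CCL2, CD99L2, CDC14B, GLI3, LHX5, MAN2C1, NFIA, PPP2R3A, TLE3 and ZFHX1B). The 95% intervals of the 20 reached from -0.76 to 0.85, so differences of that size are not excluded for them.

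The other probes of the OCT4 lists give a scale for these shares. Among all 2689 of them, which include 17 with 3 marks that were left out by name or family, 59.1% were called in the listed direction between SOX2 and NANOG knock-down and 0.818% in the other, against 68.7% and 1.49% of the 67 members. By number of marks the share in the listed direction was 58.5% with no mark (2388 probes), 62.3% with 1 of 3 (191 probes) and 61.3% with 2 of 3 (93 probes). A mark is a plus sign, and blank entries were counted like minus signs. Probes with no mark were therefore not all found unbound. Split by list, members listed as higher (64.5%) lay between probes with no mark (61.4%) and those with 1 or 2 marks (72.4% and 75.6%). Members listed as lower (72.2%) lay above all of these (53.6%, 46.7% and 50%). The difference between members and other listed probes was not tested. Of the members, 46.3% were on the list of higher probes, beside 62.5% of probes with no mark, 60.7% with 1 mark and 44.1% with 2. With the genes left out by name or family put back, the share for 3 marks was 40.5% (34 of 84). Of the 17 probes so left out, 16 (94.1%) were called in the listed direction between SOX2 and NANOG knock-down.

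**Figure D2:**
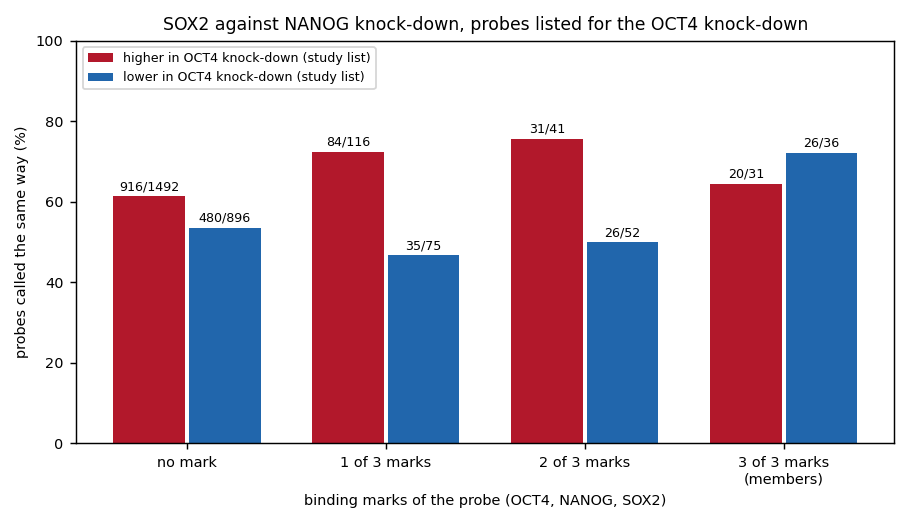
Share of probes on the OCT4 lists (percent, vertical) that were called in the listed direction between SOX2 and NANOG knock-down, by number of binding marks (horizontal), with the count over each bar; red bars are probes listed as higher after OCT4 knock-down and blue bars those listed as lower. Members stand at 64.5% and 72.2%, and probes with no mark at 61.4% and 53.6%.

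**Figure D3:**
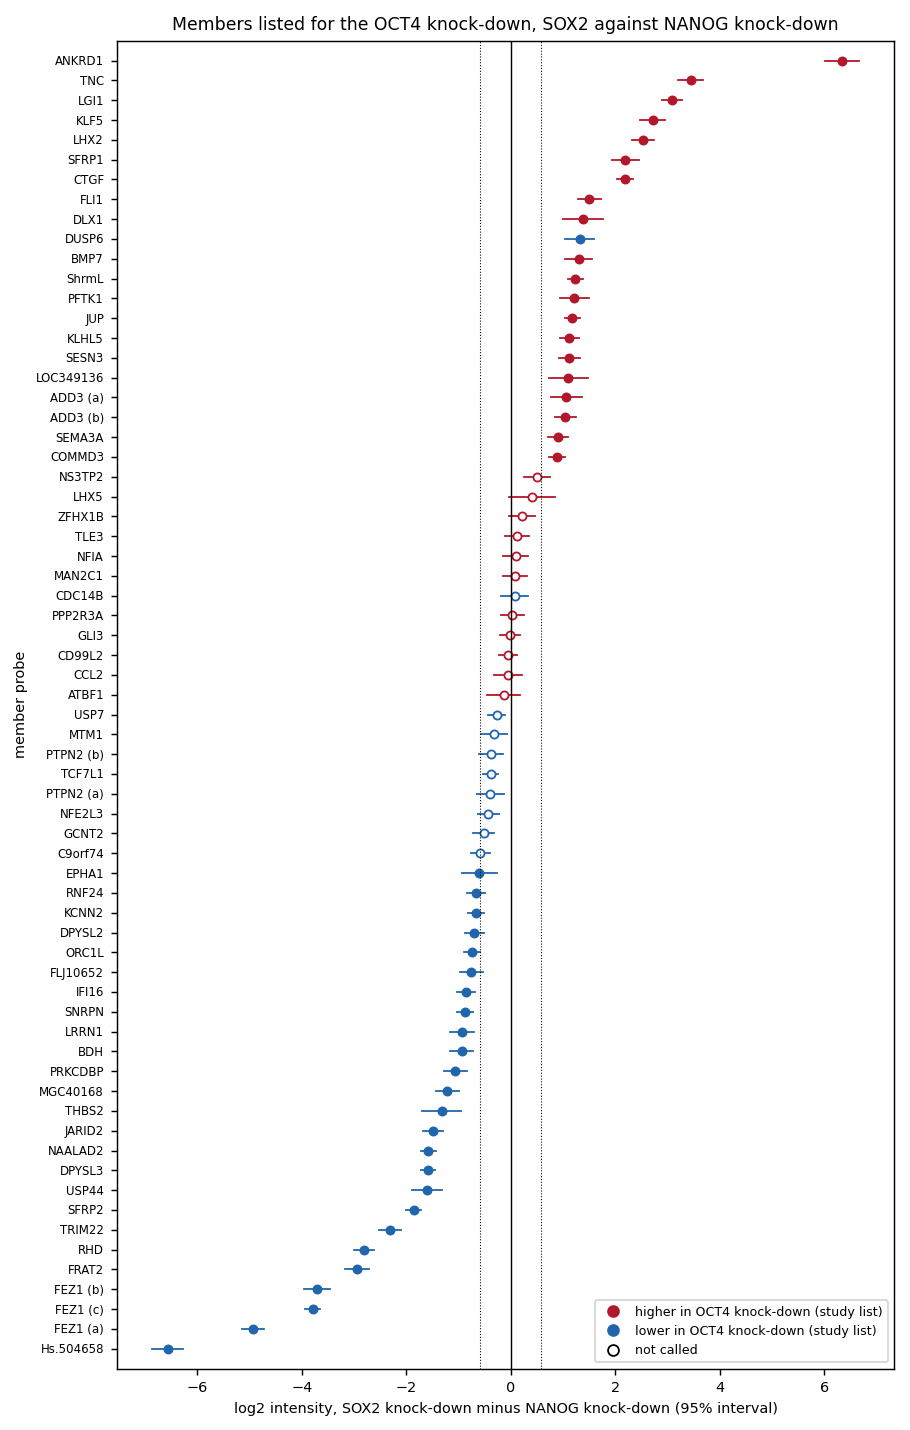
Log2 intensity after SOX2 knock-down minus that after NANOG knock-down (horizontal, with 95% intervals from the fit of 12 arrays) for all but 1 of the 67 members from the OCT4 lists (vertical), with dotted lines at 1.5-fold; red is listed as higher and blue as lower after OCT4 knock-down, and open points were not called. Red points lie to the right and blue to the left among those called, apart from DUSP6 at 1.32.

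DNA-binding factors and corepressors form the largest role group, with 17 probes, and include factors of neural and limb patterning as well as factors expressed in undifferentiated cells. Against mock, 9 were higher and 5 lower after OCT4 knock-down, 6 and 2 after NANOG knock-down, and 9 and 5 after SOX2 knock-down. KLF5, a zinc finger factor of epithelia and of pluripotent cells, read 4.43, 4.61 and 4.54 in mock, 7.63, 7.48 and 7.50 after OCT4 knock-down, 4.73, 4.73 and 4.59 after NANOG knock-down, and 7.45, 7.61 and 7.14 after SOX2 knock-down. It was detected on every OCT4 and SOX2 knock-down array and on no mock or NANOG knock-down array, and these sets do not overlap. Where a probe was detected on no array of a group, a least fold was computed by raising that group's values to the lowest detected value of each array. For KLF5 this gave at least 4.88-fold after OCT4 knock-down against mock, and at least 4.19-fold after SOX2 against NANOG knock-down (log2 2.72 ± 0.11, adjusted p = 8.12e-10 with limma, higher on 3 of 3 arrays).

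The LIM homeodomain gene LHX2, which acts in forebrain and eye formation, read 7.55, 7.37 and 7.24 in mock, 9.62, 9.80 and 9.79 after OCT4 knock-down, 7.22, 7.12 and 7.36 after NANOG knock-down, and 9.82, 9.68 and 9.80 after SOX2 knock-down. Arrays of the OCT4 and SOX2 knock-downs were all above the others, and SOX2 exceeded NANOG knock-down by 2.53 ± 0.10 (adjusted p = 5e-10, 3 of 3 arrays). Its relative LHX5, expressed in the developing forebrain and spinal cord, read 5.15, 6.08 and 5.73 in mock, 6.95, 6.56 and 6.83 after OCT4 knock-down, 5.54, 5.57 and 5.97 after NANOG knock-down, and 6.17, 5.95 and 6.20 after SOX2 knock-down. It was called after OCT4 knock-down alone (1.13 ± 0.20), and its SOX2 knock-down arrays overlap the mock arrays. The distal-less genes, of forebrain and limb patterning, also differed: DLX1 was higher after OCT4 (1.85) and SOX2 knock-down (1.80) and not called after NANOG knock-down (0.41), whereas DLX5 was called higher in all 3 (1.04, 1.32 and 0.79). Neither was detected on any mock array. The least folds were 2.86 and 2.76 for DLX1 after OCT4 and SOX2 knock-down, and for DLX5 they were 1.20, 1.46 and 1.01 after OCT4, NANOG and SOX2 knock-down, so its calls rest on values at background. SOX2 exceeded NANOG knock-down for DLX1 by 1.39 ± 0.18 (adjusted p = 3.13e-05, 3 of 3 arrays).

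Several repressors and patterning factors were moderately higher in more than 1 knock-down. ZFHX1B (ZEB2), a repressor of epithelial genes, was higher by 0.74, 0.72 and 0.93 after OCT4, NANOG and SOX2 knock-down, and the homeodomain and zinc finger factor ATBF1 (ZFHX3) by 0.87, 1.001 and 0.87. TLE3, a Groucho corepressor, was higher by 0.80, 0.80 and 0.92. GLI3, a mediator of Hedgehog signalling, stood at 0.54, not called, after OCT4 knock-down and was higher by 0.62 and 0.61 after NANOG and SOX2 knock-down, both calls being lost when single arrays were left out. None of these 4 was called between SOX2 and NANOG knock-down (0.21, -0.13, 0.12 and -0.01). NFIA, a nuclear factor I protein of glial development, was not called in any of the 3 (0.44, 0.26 and 0.35). IRX2, an Iroquois homeodomain factor, was higher after NANOG knock-down (1.40 ± 0.08) and not called after the others (-0.45 and -0.54). FLI1, an ETS factor of blood and vessel cells, was higher after OCT4 (0.68) and SOX2 knock-down (0.64) and lower after NANOG knock-down (-0.86), and it parted SOX2 from NANOG knock-down by 1.51 ± 0.10 (adjusted p = 7.27e-08, 3 of 3 arrays). Only 1 of 3 NANOG knock-down arrays detected it, so the size of its drop is not exact.

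Other factors of this role were lower after OCT4 and SOX2 knock-down. JARID2, a subunit of the PRC2 histone methylation complex, was lower by -2.002 after OCT4 and -2.01 after SOX2 knock-down and stood at -0.53, not called, after NANOG knock-down. Between SOX2 and NANOG knock-down it differed by -1.49 ± 0.08 (adjusted p = 2.09e-08, 3 of 3 arrays). NFE2L3, a CNC-bZIP factor, was lower in all 3 (-1.98, -1.61 and -2.03) and was not called between SOX2 and NANOG knock-down (-0.43). TCF7L1, the HMG box factor through which Wnt target genes are repressed, was lower after OCT4 (-0.82) and SOX2 knock-down (-0.65), with -0.26 after NANOG knock-down and -0.39 between SOX2 and NANOG knock-down. IFI16, an interferon-inducible DNA sensor, was lower after OCT4 (-0.69) and SOX2 knock-down (-0.71) and parted SOX2 from NANOG knock-down by -0.86 ± 0.08 (adjusted p = 2.25e-06, 3 of 3 arrays). Over the 15 probes of this role from the OCT4 lists, 4 were called higher and 3 lower between SOX2 and NANOG knock-down.

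Secreted and matrix proteins, 9 probes, held some of the widest differences. After OCT4 knock-down 7 were higher and 2 lower, with the same counts after SOX2 knock-down, and 3 were higher and 3 lower after NANOG knock-down. The secreted Frizzled-related proteins, which bind Wnt ligands outside the cell, went opposite ways. SFRP1 read 6.81, 7.11 and 6.65 in mock, 10.06, 9.90 and 9.96 after OCT4 knock-down, 7.90, 7.77 and 7.79 after NANOG knock-down, and 10.13, 10.12 and 9.79 after SOX2 knock-down. SFRP2 read 11.57, 11.54 and 11.50 in mock, 8.30, 8.41 and 8.32 after OCT4 knock-down, 10.07, 10.08 and 10.12 after NANOG knock-down, and 8.18, 8.20 and 8.32 after SOX2 knock-down. For both genes the NANOG knock-down arrays lie between mock and the other knock-downs with no overlap. SFRP1 was higher by 3.12 ± 0.12, 0.96 ± 0.12 and 3.16 ± 0.12 after OCT4, NANOG and SOX2 knock-down, and SFRP2 lower by -3.20 ± 0.06, -1.45 ± 0.06 and -3.31 ± 0.06. Between SOX2 and NANOG knock-down SFRP1 differed by 2.20 ± 0.12 (adjusted p = 1.4e-08) and SFRP2 by -1.86 ± 0.06 (adjusted p = 2.48e-10), each on 3 of 3 arrays.

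LGI1, a secreted protein of synapses, read 4.48, 4.38 and 4.63 in mock, 7.97, 7.73 and 7.69 after OCT4 knock-down, 4.66, 4.69 and 4.68 after NANOG knock-down, and 7.72, 7.85 and 7.73 after SOX2 knock-down. It was detected on no mock or NANOG knock-down array, and was at least 5.82-fold higher after OCT4 knock-down than in mock and at least 5.40-fold higher after SOX2 than after NANOG knock-down (log2 3.09 ± 0.09, adjusted p = 4.78e-11, 3 of 3 arrays). TNC, the matrix glycoprotein tenascin C, read 7.61, 7.59 and 7.63 in mock, 8.33, 8.44 and 8.16 after OCT4 knock-down, 5.22, 4.91 and 4.75 after NANOG knock-down, and 8.40, 8.43 and 8.38 after SOX2 knock-down. The 4 groups make 3 levels: undetected after NANOG knock-down, mock in the middle, and OCT4 and SOX2 knock-down above it. It was higher by 0.70 and 0.79 after OCT4 and SOX2 knock-down and at least 4.85-fold lower after NANOG knock-down (log2 -2.65 ± 0.11). After SOX2 it was at least 8.41-fold higher than after NANOG knock-down (log2 3.45 ± 0.11, adjusted p = 1.09e-10, 3 of 3 arrays).

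CTGF (CCN2), a matricellular growth factor, read 9.89, 9.88 and 9.96 in mock, 12.63, 12.67 and 12.68 after OCT4 knock-down, 10.53, 10.53 and 10.70 after NANOG knock-down, and 12.71, 12.84 and 12.75 after SOX2 knock-down. The NANOG knock-down arrays stand apart from mock on the upper side, and far below the other knock-downs (SOX2 against NANOG knock-down 2.18 ± 0.07, adjusted p = 1.16e-10, 3 of 3 arrays). THBS2, the matrix protein thrombospondin 2, was lower in all 3 knock-downs (-2.82 ± 0.17, -1.84 ± 0.17 and -3.16 ± 0.17), and lower after SOX2 than after NANOG knock-down by -1.32 ± 0.17 (adjusted p = 4.16e-05, 3 of 3 arrays). Detection on 1 of 3 SOX2 knock-down arrays means that the size of the differences from that group is not exact. BMP7, a bone morphogenetic ligand, and SEMA3A, a repulsive axon guidance cue, were higher after OCT4 (1.08 and 1.04) and SOX2 knock-down (1.14 and 0.87), and stood at -0.16 and -0.03 after NANOG knock-down. They parted SOX2 from NANOG knock-down by 1.30 ± 0.11 (adjusted p = 1.26e-06) and 0.90 ± 0.09 (adjusted p = 3.7e-06), each on 3 of 3 arrays. CCL2, a monocyte chemokine, was detected on no mock array and was called higher in all 3 knock-downs, by at least 1.43-fold, 1.53-fold and 1.48-fold, with -0.05 between SOX2 and NANOG knock-down. Of the 9 probes, 6 were called higher and 2 lower between SOX2 and NANOG knock-down.

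**Figure D4:**
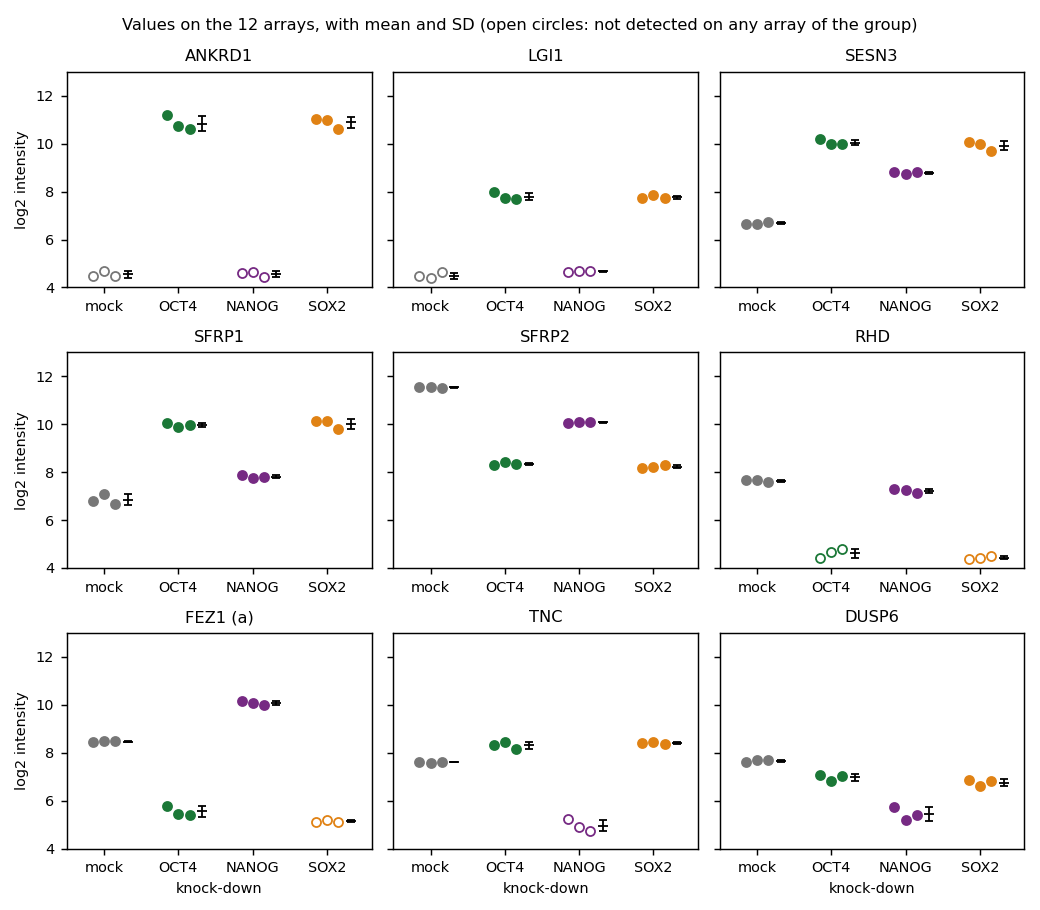
Log2 intensity (vertical) of 9 member probes on the 3 arrays of each group (horizontal; grey mock, green OCT4, purple NANOG, orange SOX2 knock-down), with the mean and SD beside the points; open circles mark groups in which the probe was detected on no array. FEZ1 probe a goes from 8.47 in mock to 5.55, 10.07 and 5.14 after OCT4, NANOG and SOX2 knock-down, and TNC and DUSP6 are lowest after NANOG knock-down, at 4.96 and 5.44.

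Receptors, kinases, phosphatases and their regulators, 11 probes, held 8 that were lower after OCT4, 5 after NANOG and 8 after SOX2 knock-down, with 1 higher in each and the rest not called. As in every role, these counts come from contrasts that chose the members or share their mock arrays, and the shares over all probes stand with the totals above. FRAT2, which binds GSK3 and activates Wnt signalling, read 11.12, 11.15 and 10.94 in mock, 8.54, 8.70 and 8.80 after OCT4 knock-down, 11.29, 11.52 and 11.46 after NANOG knock-down, and 8.42, 8.37 and 8.65 after SOX2 knock-down. The NANOG knock-down arrays were a little above mock (0.35, not called) and the others far below, with SOX2 against NANOG knock-down at -2.94 ± 0.10 (adjusted p = 2.48e-10, 3 of 3 arrays). DUSP6, the phosphatase that switches off ERK and is itself induced by FGF signalling, read 7.62, 7.69 and 7.68 in mock, 7.07, 6.82 and 7.02 after OCT4 knock-down, 5.74, 5.19 and 5.38 after NANOG knock-down, and 6.86, 6.60 and 6.81 after SOX2 knock-down. It was lower in all 3 knock-downs, and lowest after NANOG knock-down, where 2 of 3 arrays detected it (-2.23 ± 0.13 against -0.69 and -0.91), with no overlap between the NANOG and SOX2 knock-down arrays (adjusted p = 2.54e-06 for the 1.32 between them, 3 of 3 arrays).

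EPHA1, an ephrin receptor kinase, was lower by -2.07, -1.67 and -2.26 after OCT4, NANOG and SOX2 knock-down. Between SOX2 and NANOG knock-down it differed by -0.60 ± 0.15 (adjusted p = 0.00532, 3 of 3 arrays), and this call was lost when single arrays were left out. It was detected on 2 of 3 OCT4 and 1 of 3 SOX2 knock-down arrays, so these differences lie partly at background. CDC14B, a phosphatase of the cell cycle, was lower by like amounts (-1.46, -1.57 and -1.49). The probes of PTPN2, a tyrosine phosphatase of JAK and STAT signalling, were also lower in all 3, and least so after NANOG knock-down. Probe a stood at -1.47, -1.12 and -1.51, and probe b at -1.67, -1.16 and -1.54. None of these 3 probes was called between SOX2 and NANOG knock-down (0.08, -0.39 and -0.37). MTM1, a phosphoinositide phosphatase, and PRKCDBP (CAVIN3), a caveolar protein, were lower after OCT4 (-0.69 and -0.81) and SOX2 knock-down (-0.72 and -0.64, both calls being lost when single arrays were left out). In the comparison of SOX2 with NANOG knock-down MTM1 stood at -0.31, not called, and PRKCDBP differed by -1.06 ± 0.10 (adjusted p = 3.15e-06, 3 of 3 arrays). PFTK1 (CDK14), a cyclin-dependent kinase, was the one probe of this role that was higher after OCT4 (0.72, a call lost when single arrays were left out) and SOX2 knock-down (0.92), and it parted SOX2 from NANOG knock-down by 1.22 ± 0.13 (adjusted p = 6.67e-06, 3 of 3 arrays). PPP2R3A, a regulatory subunit of protein phosphatase 2A, was not called in any (0.49, 0.43 and 0.46). PPAP2A (PLPP1), a lipid phosphatase of the membrane, was higher after NANOG knock-down (0.61) and stood at -0.52 and -0.51, not called, after the others. Of the 10 probes from the OCT4 lists, 2 were called higher and 3 lower between SOX2 and NANOG knock-down.

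Cytoskeletal, adhesion and neuronal genes, 15 probes, went in both directions: 7 were higher and 6 lower after OCT4, 4 and 2 after NANOG, and 6 and 7 after SOX2 knock-down. ANKRD1, a nuclear and sarcomeric ankyrin repeat protein of heart and stretched muscle, read 4.46, 4.70 and 4.47 in mock, 11.18, 10.73 and 10.61 after OCT4 knock-down, 4.62, 4.62 and 4.42 after NANOG knock-down, and 11.05, 11.001 and 10.63 after SOX2 knock-down. It was detected on every array of the latter and the OCT4 group and on none of the mock and NANOG knock-down arrays. The difference was at least 48.2-fold after OCT4 knock-down against mock, and at least 47.2-fold after SOX2 against NANOG knock-down (log2 6.34 ± 0.15, adjusted p = 1.12e-11, 3 of 3 arrays).

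FEZ1, a kinesin adaptor of axon growth, was measured by 3 probes, a, b and c, which share a gene and are not independent. Probe a read 8.43, 8.47 and 8.50 in mock, 5.80, 5.44 and 5.42 after OCT4 knock-down, 10.16, 10.06 and 9.98 after NANOG knock-down, and 5.10, 5.19 and 5.13 after SOX2 knock-down. It lies above mock on all NANOG knock-down arrays and below mock on all OCT4 and SOX2 knock-down arrays. Probes a, b and c were lower after OCT4 knock-down by -2.92, -2.20 and -1.89, higher after NANOG knock-down by 1.60, 1.55 and 1.86, and lower after SOX2 knock-down by -3.33, -2.16 and -1.93. Between SOX2 and NANOG knock-down they differed by -4.93 ± 0.10, -3.71 ± 0.12 and -3.79 ± 0.07 (adjusted p = 4.64e-12, 1.16e-10 and 2.78e-12, each on 3 of 3 arrays). For probe a, detected on no SOX2 knock-down array, that is at least 28.4-fold. The drop of probe a from mock after SOX2 knock-down is likewise a bound, of at least 9.37-fold.

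The collapsin response mediators DPYSL2 and DPYSL3, which bind tubulin in growing axons, were lower after OCT4 (-1.07 and -1.42) and SOX2 knock-down (-1.11 and -1.32). After NANOG knock-down they stood at -0.42 and 0.26, not called, and between SOX2 and NANOG knock-down they differed by -0.70 ± 0.08 (adjusted p = 2.04e-05) and -1.58 ± 0.06 (adjusted p = 4.04e-10), each on 3 of 3 arrays. LRRN1, a neuronal leucine-rich repeat membrane protein, was lower by -1.25 and -1.30 after OCT4 and SOX2 knock-down, and KCNN2, a calcium-activated potassium channel, by -0.70 after SOX2 knock-down with -0.55, not called, after OCT4 knock-down. Both were lower after SOX2 than after NANOG knock-down (-0.94 ± 0.10, adjusted p = 9.67e-06; -0.66 ± 0.07, adjusted p = 6.67e-06; 3 of 3 arrays each). Junction and actin genes were among those higher after OCT4 and SOX2 knock-down: JUP, the plakoglobin of desmosomes and adherens junctions (1.07 and 1.04), ShrmL (SHROOM3), an actin-binding protein of apical constriction (0.84 and 0.91), and KLHL5, a Kelch-like protein (1.10 and 1.20). They parted SOX2 from NANOG knock-down by 1.18 ± 0.06, 1.24 ± 0.06 and 1.12 ± 0.09 (adjusted p = 1.45e-08, 9.78e-09 and 3.33e-07, 3 of 3 arrays each).

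The probes of ADD3, an adducin that links actin to spectrin, were close to the threshold. Probe a was higher after OCT4 knock-down (0.62 ± 0.14) and lower after NANOG knock-down (-0.60 ± 0.14), both calls being lost when single arrays were left out, and it stood at 0.46, not called, after SOX2 knock-down. Probe b was higher after OCT4 (0.67) and SOX2 knock-down (0.73) and stood at -0.31, not called, after NANOG knock-down. Both differed between SOX2 and NANOG knock-down, by 1.06 ± 0.14 and 1.05 ± 0.09 (adjusted p = 3.56e-05 and 1.29e-06, 3 of 3 arrays each). CD99L2, a membrane protein related to CD99, was higher by like amounts in all 3 (0.69, 0.76 and 0.71), and DTNA, a dystrobrevin of the dystrophin complex, was lower after NANOG knock-down (-0.64), with -0.58 and -0.43, not called, after the others. Of the 14 probes of this role from the OCT4 lists, 6 were called higher and 7 lower between SOX2 and NANOG knock-down.

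Enzymes of metabolism and stress, 6 probes, were led by SESN3, a sestrin that restrains TORC1 and answers FOXO factors. It read 6.66, 6.66 and 6.73 in mock, 10.19, 9.98 and 9.98 after OCT4 knock-down, 8.83, 8.75 and 8.81 after NANOG knock-down, and 10.06, 10.00 and 9.70 after SOX2 knock-down. All knock-down arrays lie above mock, those of NANOG knock-down at an intermediate level. It was higher by 3.36 ± 0.10, 2.11 ± 0.10 and 3.24 ± 0.10, and SOX2 exceeded NANOG knock-down by 1.12 ± 0.10 (adjusted p = 8.83e-07, 3 of 3 arrays). NAALAD2, a glutamate carboxypeptidase, was lower after OCT4 (-0.73) and SOX2 knock-down (-0.78) and higher after NANOG knock-down (0.79), and parted SOX2 from NANOG knock-down by -1.57 ± 0.07 (adjusted p = 1.12e-09, 3 of 3 arrays). DHRS3, a retinaldehyde reductase, was higher after NANOG knock-down (1.25 ± 0.10) and stood at 0.18 after OCT4 knock-down, and its SOX2 knock-down arrays overlap the mock arrays. BDH (BDH1), a ketone body enzyme, was lower after OCT4 (-0.69) and SOX2 knock-down (-0.81), with -0.94 ± 0.10 between SOX2 and NANOG knock-down (adjusted p = 7.62e-06, 3 of 3 arrays). GCNT2, which makes branched I antigen, was lower after OCT4 knock-down (-0.70) and, undetected there, at least 1.86-fold after SOX2 knock-down, and MAN2C1, a cytosolic mannosidase, was higher after NANOG (0.60) and SOX2 knock-down (0.69), neither being called between these. Of the 5 probes from the OCT4 lists, 1 was called higher and 2 lower there.

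Genes of ubiquitin, replication and RNA, 7 probes, held 5 that were lower after OCT4 and 6 after SOX2 knock-down, and after NANOG knock-down 1 was lower and 6 were not called. COMMD3, a COMM domain protein, was higher after OCT4 (1.01) and SOX2 knock-down (1.02). USP44, a deubiquitinase of histone H2B and of the spindle checkpoint, read 8.69, 8.86 and 8.97 in mock, 6.15, 6.14 and 6.23 after OCT4 knock-down, 7.72, 7.35 and 7.80 after NANOG knock-down, and 6.30, 5.88 and 5.89 after SOX2 knock-down. The NANOG knock-down arrays lie between mock and the others without overlap, and SOX2 against NANOG knock-down gave -1.60 ± 0.13 (adjusted p = 8.06e-07, 3 of 3 arrays). Its relative USP7, a deubiquitinase of MDM2, moved less (-0.88, -0.47 not called, and -0.74) and was not called between SOX2 and NANOG knock-down (-0.27). TRIM22, an interferon-inducible E3 ligase, read 6.70, 6.81 and 6.87 in mock, 4.78, 5.02 and 5.04 after OCT4 knock-down, 7.09, 6.83 and 7.16 after NANOG knock-down, and 4.64, 4.74 and 4.77 after SOX2 knock-down. It was detected on no array of the OCT4 and SOX2 knock-downs, so that the drop is at least 3.04-fold after OCT4 knock-down against mock and at least 3.69-fold after SOX2 against NANOG knock-down (log2 -2.31 ± 0.10, adjusted p = 1.58e-09, 3 of 3 arrays).

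RNF24, a RING finger protein, ORC1L (ORC1), the largest subunit of the origin recognition complex, and SNRPN, an imprinted splicing protein, were lower after SOX2 knock-down by -0.86, -0.83 and -0.69. After OCT4 knock-down RNF24 and ORC1L were lower (-0.93 and -0.78) and SNRPN stood at -0.55, not called. Between SOX2 and NANOG knock-down these 3 differed by -0.66 ± 0.08, -0.75 ± 0.07 and -0.87 ± 0.07 (adjusted p = 1.98e-05, 2.34e-06 and 7.04e-07), and COMMD3 by 0.88 ± 0.07 (adjusted p = 4.68e-07), each on 3 of 3 arrays. In this role 1 probe was called higher and 5 lower in that contrast.

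The other 8 probes include transcripts with little known function. A UniGene transcript cluster with no gene name read 12.58, 12.55 and 12.44 in mock, 6.66, 6.32 and 6.64 after OCT4 knock-down, 12.39, 12.28 and 12.35 after NANOG knock-down, and 5.64, 5.55 and 6.13 after SOX2 knock-down. It is high on the mock and NANOG knock-down arrays and far lower, though detected, on the other 6. Its difference was -5.98 ± 0.14 after OCT4 knock-down, -0.19 after NANOG knock-down and -6.75 ± 0.14 after SOX2 knock-down, and -6.56 ± 0.14 between SOX2 and NANOG knock-down (adjusted p = 6.99e-12, 3 of 3 arrays). RHD, the Rhesus D antigen of red cells, read 7.69, 7.65 and 7.60 in mock, 4.42, 4.65 and 4.77 after OCT4 knock-down, 7.32, 7.24 and 7.14 after NANOG knock-down, and 4.39, 4.40 and 4.49 after SOX2 knock-down. It was undetected on the OCT4 and SOX2 knock-down arrays, at least 5.50-fold below mock after OCT4 knock-down and at least 4.25-fold below NANOG knock-down after SOX2 knock-down (log2 -2.80 ± 0.09, adjusted p = 1.16e-10, 3 of 3 arrays).

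Of the rest, FLJ10652 (RESF1) and MGC40168 were lower after OCT4 (-1.09 and -1.18) and SOX2 knock-down (-1.29 and -1.04), and C9orf74 (URM1), a ubiquitin-like modifier, was called in none of the 3 (-0.57, 0.10 and -0.48). LOC349136 (WDR86), a WD repeat protein, was higher after OCT4 (1.16) and SOX2 knock-down (1.26), with 1 of 3 mock and 1 of 3 NANOG knock-down arrays detecting it, and NS3TP2 (GRAMD2B), detected on no mock array, was called higher in all 3, by at least 1.44-fold, 1.25-fold and 1.77-fold. CEI was higher after NANOG knock-down (2.04 ± 0.19) and stood at 0.38 and 0.42, not called, after the others. Between SOX2 and NANOG knock-down FLJ10652, MGC40168 and LOC349136 differed by -0.75 ± 0.10, -1.21 ± 0.10 and 1.11 ± 0.17 (adjusted p = 4.94e-05, 9.88e-07 and 0.000173, 3 of 3 arrays each), and 1 of the 7 probes from the OCT4 lists was called higher and 4 lower.

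The 6 members found on the NANOG lists alone (CEI, DHRS3, DLX5, DTNA, IRX2 and PPAP2A) were examined between OCT4 and SOX2 knock-down, arrays that the NANOG lists did not use (NANOG knock-down and mock arrays enter through normalisation and spread), although their absence from the OCT4 lists did use OCT4 knock-down arrays. None of the 6 was called, with differences between -0.16 and 0.25. Over all 12374 probes limma called 0 (0%) in this contrast, while 1204 had an unadjusted p under 0.05, the smallest adjusted p was 0.0575, and other settings gave up to 67. The largest difference, 6.54, was on a probe without a name whose mock arrays read 4.26, 9.92 and 4.38, and it is not a member. Among all 73 members the differences between OCT4 and SOX2 knock-down ran from -0.29 to 0.77, with a median absolute difference of 0.10 and 18 members (24.7%) without overlap between the groups, beside 16.7% of all tested probes. A p that misses the threshold does not show that the groups are equal.

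Members measured by a further probe on the array give a check within the gene. The pairs for PTPN2 and ADD3 and the trio for FEZ1, all members, went the same way in each of the OCT4 and SOX2 knock-downs. Other probes of DTNA, GCNT2, KCNN2 and PPP2R3A share a sequence record with the member probe and are not on any list held. They were detected on at most 2 arrays of a group and carry no information on direction. A further PPAP2A probe read 7.25, 7.19 and 6.96 in mock, 6.48, 6.58 and 6.51 after OCT4 knock-down, 7.15, 7.42 and 7.66 after NANOG knock-down, and 6.27, 6.38 and 6.41 after SOX2 knock-down. Its NANOG knock-down arrays overlap mock, whereas those of the other knock-downs lie below it. This probe was called lower after OCT4 (-0.61) and SOX2 knock-down (-0.78) and not called after NANOG knock-down (0.28). It does not share the member probe's call after NANOG knock-down alone.

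Near the threshold of 1.5-fold the members just below it after OCT4 knock-down were SNRPN (1.46-fold), C9orf74 (1.48-fold) and DTNA (1.497-fold), all lower, and just above it ADD3 probe a (1.53-fold), ADD3 probe b (1.59-fold) and FLI1 (1.60-fold), all higher. After NANOG knock-down GCNT2 (1.43-fold), JARID2 (1.44-fold) and FLJ10652 (1.45-fold) stood just below, all lower, and ADD3 probe a (1.51-fold, lower), MAN2C1 (1.52-fold, higher) and PPAP2A (1.52-fold, higher) just above. Calls against mock that were lost when single arrays were left out also include MAN2C1 after NANOG and FLI1 after SOX2 knock-down. The study's lists and the calls made here differ for few members: of 67 on the OCT4 lists 60 were called, and of 24 on the NANOG lists 22 were. DLX5 was called after OCT4 knock-down without being on an OCT4 list held, and 11 probes were called after NANOG knock-down without being on a NANOG list held, of which that of lower probes is held in part.

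SFRP1, SFRP2, FRAT2, TCF7L1 and TLE3 are on a list of 74 Wnt genes, and the other genes of that list were counted, with no test of whether it is over-represented. Of its genes 5 are members, 16 others could be named on the array and 53 could not. Those that can be named come from the study's lists for these samples, so the counts were largely fixed by how the genes were found and are not evidence of direction. After OCT4 knock-down 13 of the 16 were called higher and 2 lower (TLE2 and PYGO2), where 13.8% and 10.7% of all probes were, with a median log2 difference of 1.08 beside -0.03 over all probes. After NANOG knock-down 6 were higher and 1 lower (5.12% and 4.29% of all probes, median 0.49 beside 0.01), and after SOX2 knock-down 11 were higher and 2 lower (13.5% and 10.4% of all probes, median 1.04 beside -0.04). After OCT4 knock-down the receptor FZD2 (2.54), the secreted DKK3 (2.17) and the ligands WNT5B (1.70) and WNT5A (1.55) were higher, as were the nuclear factor LEF1 (at least 3.75-fold) and the ligand WNT4 (at least 2.25-fold), which no mock array detected. The corepressor TLE2, undetected after OCT4 knock-down, was at least 2.55-fold lower. After NANOG knock-down FZD2 and LEF1 stood at -0.05 and 0.23, not called, and the secreted Wnt antagonist FRZB (2.03) and WNT5A (1.23) were higher. Only 1 of 3 mock arrays detected FRZB, and the same holds for WNT5A, so the sizes of their differences from mock are not exact.

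Promoter sequence is a feature that the rule did not use. RefSeq promoters (build GRCh38.p14, 250 bases before to 50 after the start) were matched for 50 of the 65 member genes that have a gene ID in the RefSeq gene table. Both strands were searched for the octamer ATGCAAAT, which POU proteins such as OCT4 recognise, for the SOX letters CATTGTT, for a composite that contains the octamer (the first 6 of the SOX letters, 1 further base, then the octamer), and for the homeodomain letters TAATGG. The octamer was in 3 of 50 member promoters (6%) and in 1.8% of all 27305 promoters, the SOX letters in 2 (4% against 3.38%), the composite in 0 (0.00732% of all) and the homeodomain letters in 5 (10% against 6.87%). Median GC content was 58.2% for members and 58.3% for all, and the median count of CpG was 19 against 14. A match is a description, not a binding site, and no match says only that the letters are not in this window. The promoters with the octamer, NFIA, PFTK1 (CDK14) and TNC, are shown because they are the members in which it occurs, with the octamer in capitals as it reads on the printed strand. NFIA is chr1:61076977-61077276 on the plus strand with the octamer at position -42 from the start, PFTK1 is chr7:90709148-90709447 on the plus strand with it at -181 and on the opposite strand, and TNC is chr9:115118108-115118407 on the minus strand with it at -189.
NFIA: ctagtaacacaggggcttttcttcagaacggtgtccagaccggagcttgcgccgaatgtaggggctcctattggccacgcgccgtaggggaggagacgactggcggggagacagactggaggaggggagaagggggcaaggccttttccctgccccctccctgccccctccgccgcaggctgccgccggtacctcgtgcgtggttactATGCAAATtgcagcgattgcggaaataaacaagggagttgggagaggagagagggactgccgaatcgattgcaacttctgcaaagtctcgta
PFTK1: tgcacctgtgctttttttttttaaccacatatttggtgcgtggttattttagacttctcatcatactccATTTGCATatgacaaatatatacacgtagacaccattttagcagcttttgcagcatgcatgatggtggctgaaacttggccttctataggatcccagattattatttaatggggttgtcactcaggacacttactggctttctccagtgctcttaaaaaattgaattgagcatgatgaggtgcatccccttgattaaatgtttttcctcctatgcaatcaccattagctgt
TNC: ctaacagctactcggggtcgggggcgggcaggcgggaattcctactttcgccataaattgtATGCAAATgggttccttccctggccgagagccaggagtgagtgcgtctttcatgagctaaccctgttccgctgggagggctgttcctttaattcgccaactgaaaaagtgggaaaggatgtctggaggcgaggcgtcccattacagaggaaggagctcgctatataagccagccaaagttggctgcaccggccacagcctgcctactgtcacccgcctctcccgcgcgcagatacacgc

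These 3 genes did not share a pattern of RNA: NFIA was called in no knock-down, PFTK1 was higher after OCT4 and SOX2 knock-down, and TNC was higher after these and lower after NANOG knock-down.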

How the data were processed

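RNA from 4 samples (mock, OCT4, NANOG and SOX2 knock-down), 3 arrays each, was measured on Illumina BeadChips. The deposited array files hold the mean bead intensity of each probe and its spread over beads, neither background-subtracted nor normalised, and the deposited detection score, a fraction between 0 and 1. The authors' processed table holds the mean intensity of 3 arrays after background subtraction and rank-invariant normalisation in BeadStudio 1.0, and was used as an alternative only. Intensities were corrected by normexp (background inferred from the detection scores), offset by 16, quantile-normalised and put on the log2 scale. limma 3.58.1 in R 4.3.3 fitted all 12 arrays with 1 estimate of the spread per probe, and p-values were adjusted by Benjamini-Hochberg over 12374 probes. Figures and promoter counts were made in Python 3.11.15 with matplotlib 3.10.9. The code was tested on simulated data.

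The array files carry no gene names. Names come from the study's supplementary table, so that 2985 probes (6.31% of the array) can be named, and gene counts of any list are limited to these. Probes of 1 gene are labelled a, b and c. Left out by rule were the named genes and histone genes counted in the opening. The members and lists were chosen with earlier results of these data known. Chosen for naming, with array values or with differences alone, were the targets and the 12 largest called members after OCT4 and after NANOG knock-down. So were the 10 largest between SOX2 and NANOG knock-down, and members with opposite calls, further probes, related genes and neighbours of the threshold. Up to 8 Wnt genes were also chosen. The others, all but 1, are named within their role. No set test was run. Alternatives tried were other background corrections, scalings and filters, array weights, a replicate block, the t-test of the study's methods, no fold minimum, fits of 2 groups, and leaving out each array.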

Additional observations from a re-analysis of the deposited data

Results flagged for a closer look

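In 7 member probes the calls against mock went in opposite directions after OCT4 and after NANOG knock-down. The same held for 0.582% of all tested probes. Opposite calls fix the direction of the difference between the knock-downs, so that difference is given as a size and not as a test. The log2 difference of OCT4 minus NANOG knock-down was -4.52, -3.74 and -3.75 for FEZ1 probes a, b and c, and -1.52 for NAALAD2, which were lower after OCT4 and higher after NANOG knock-down. It was 3.35 for TNC, 1.54 for FLI1 and 1.21 for ADD3 probe a, which were higher after OCT4 and lower after NANOG knock-down. TNC was detected on none and FLI1 on 1 of the 3 NANOG knock-down arrays, so these sizes are not exact, and for TNC the bound is at least 7.88-fold. Both opposite calls of ADD3 probe a were lost when single arrays were left out. In each case all 3 OCT4 knock-down arrays lay on one side of all 3 mock arrays and all 3 NANOG knock-down arrays on the other. The members were chosen from these contrasts, so this is a description, and the cause was not tested.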

How the results depend on the processing

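Without background correction 1353, 342, 1356 and 1183 probes were called for OCT4, NANOG and SOX2 knock-down against mock and SOX2 against NANOG knock-down, where the fit used gave 3039, 1164, 2953 and 2636. Members called were then 39, 19 and 40, and Wnt genes 9 after OCT4 and 3 after NANOG knock-down. With probes detected on all 12 arrays the same counts were 2000, 689, 1956 and 1748, with 9, 3 and 8 Wnt genes, since fewer probes were tested. With no fold minimum they were 7004, 3801, 6831 and 6358. The adjusted t-test of the methods called 769 after NANOG knock-down.

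Between OCT4 and SOX2 knock-down, where 0 were called, the count was 12 without background correction, 49 with median scaling, 17 with probes detected on all 12 arrays, 67 with array weights, 2 with fits of 2 groups, and 20 or 1 with the t-test before or after adjustment. Leaving out single arrays gave 0 to 7. The cause of these differences was not tested.

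Of 204 named calls 12 were lost in at least 1 fit that left out an array, and 69 fell under the threshold without background correction. The submitters' means gave the same direction for 204, with 106 differing by more than the spread. A replicate block left all 204 as they were. Pairing was examined on deviations from the group means, between arrays of the same replicate number in different groups. Their correlations had a median of -0.0296 and ran from -0.31 to 0.31, with 4 of 18 pairs over 0.1, and no pairing was assumed.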

Other observations

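1 tested probe, without a name and not a member, ranged over more than 3 log2 units within a group. It read 4.26, 9.92 and 4.38 on the mock arrays, 10.91, 11.04 and 11.10 after OCT4 knock-down, 10.995, 10.85 and 10.58 after NANOG knock-down, and 4.60, 4.47 and 4.34 after SOX2 knock-down.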
